A study of Homo sapiens with 12 samples.

Results

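The serum response factor SRF, its cofactors MRTFA, MRTFB, ELK1, ELK3 and ELK4 and the target genes ACTB, ACTG1 and VCL were followed in 12 RNA-seq libraries. The 9 genes were chosen by name, matching their symbols to Ensembl IDs in GENCODE release 44. All 9 were among the 26058 genes of the deposited table and among the 22067 genes tested. The study asked whether EGF-induced gene expression and its inhibition by cordycepin depend on the energy-sensing kinase AMPK. It used HEK293 cells, a human embryonic kidney line, either wild type (WT) or with a CRISPR-Cas9 knockout of both AMPK catalytic subunit genes, PRKAA1 and PRKAA2 (AMPK KO). All cells were starved of serum for 24 h. They then received DMSO (0.025%) alone, DMSO followed by EGF for 30 min, or 25 µM cordycepin (3′-deoxyadenosine, an adenosine analogue) followed by EGF for 30 min, with pre-treatment for 20 min and 50 min in total. EGF was given as 15 with differing units (nM or µM) in the sources used here, and DMSO alone as 20 min or 50 min. There were 2 libraries per group, numbered 2 and 3. The sources used here do not say whether the AMPK KO line is 1 clone.

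SRF binds DNA as a dimer at CArG boxes. It is switched on by separate groups of cofactors. MRTFA and MRTFB bind monomeric actin in the cytoplasm and move to the nucleus when actin polymerises, and their SRF targets include actins, vinculin and other cytoskeletal genes. The ternary complex factors ELK1, ELK3 and ELK4 bind DNA beside SRF and are phosphorylated by ERK, the kinase at the end of the EGF pathway, to start immediate early genes such as EGR1 and FOS. Both controls act on cofactor proteins, which RNA-seq does not measure.

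The libraries were of unequal depth. Whole reads could be recovered from the RPKM values (reads scaled by exon length and library size), and they came to 12016743 to 25104904 in 11 libraries and to 3806335 in the shallow one, WT DMSO replicate 3. The WT DMSO replicates correlated with r = 0.918 across genes, and those of the other groups with 0.961 to 0.977. The members were well covered even so. The fewest reads on any member were 99, on ELK3 in the shallow library. The HEK293 markers VIM and KRT18 had 49.1 to 82.3 and 11.7 to 18.5 RPKM, while PAX2 reached no more than 0.851 RPKM and NEFM 0.342 RPKM. Of the 5 smooth muscle markers only MYH11 and CNN1 were listed, with 0.609 to 2.12 RPKM summed, the 2 listed fibroblast markers of 4 summed to 0.507 to 1.43 RPKM, and PTPRC, the 1 listed blood marker of 2, reached 0.061 RPKM. COL1A1, a fibroblast marker, was lower in AMPK KO than in WT cells with EGF (means of 0.39 and 1.2 RPKM, log2 fold change -0.92, limma adjusted p 0.0499), and its part in the results for that comparison was not tested. Myocardin (MYOCD), the muscle cofactor of SRF, was not among the genes listed. PRKAA1 had 15.4 and 21.9 RPKM in WT DMSO cells and 7.62 and 7.37 RPKM in AMPK KO DMSO cells (log2 fold change -1.26, limma adjusted p 0.0228), so its transcript was reduced and still present. PRKAA2 had means of 10.0 and 5.84 RPKM in WT and AMPK KO cells with DMSO (-0.73, SE 0.202, limma adjusted p 0.112) and of 7.04 and 6.41 RPKM with cordycepin and EGF, where the lines overlapped.

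The actins stood far above the transcription factors at every condition. Over the 12 libraries ACTG1, the cytoplasmic gamma actin gene (ENSG00000184009, GRCh38 chromosome 17, 81509413 to 81523847, minus strand), had a median of 505 RPKM, with a range of 377 to 569. ACTB, the cytoplasmic beta actin gene (ENSG00000075624, chromosome 7, 5526409 to 5563902, minus strand), had a median of 439 RPKM, with a range of 321 to 502. The ranges of the 2 actins overlapped. SRF (ENSG00000112658, chromosome 6, 43171269 to 43181506, plus strand) came next with a median of 31.5 RPKM (19.7 to 36.8). VCL, which encodes the focal adhesion protein vinculin (ENSG00000035403, chromosome 10, 73995193 to 74121363, plus strand), had a median of 29.4 RPKM (26.7 to 32.4). No library of SRF or VCL reached the lowest actin library, and the ranges of SRF and VCL overlapped.

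The cofactors had lower RPKM than the factor they bind. ELK1 (ENSG00000126767, chromosome X, 47635521 to 47650604, minus strand) had a median of 14.6 RPKM (9.82 to 17.2). ELK4 (ENSG00000158711, chromosome 1, 205597556 to 205632011, minus strand) had a median of 11.2 RPKM (8.29 to 14.4). These ranges overlapped, and all 12 libraries of both lay below the lowest SRF value. MRTFA (ENSG00000196588, chromosome 22, 40410281 to 40636719, minus strand) had a median of 7.95 RPKM (6.23 to 9.51). MRTFB (ENSG00000186260, chromosome 16, 14071319 to 14266773, plus strand) had a median of 6.44 RPKM (4.89 to 7.48). ELK3, also called Net (ENSG00000111145, chromosome 12, 96194375 to 96269824, plus strand), had the lowest median of the 9 genes, at 4.76 RPKM (3.42 to 6.75), and its range overlapped that of both MRTF genes. All values are per total length of annotated exons, 4405 bases for ACTB and 16580 for MRTFB. Which of these exons were in use was not examined, so the order of genes is approximate. ELK3 also varied most between libraries, with a highest value 1.97 times the lowest. VCL varied least, with a ratio of 1.21.

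**Figure D1:**
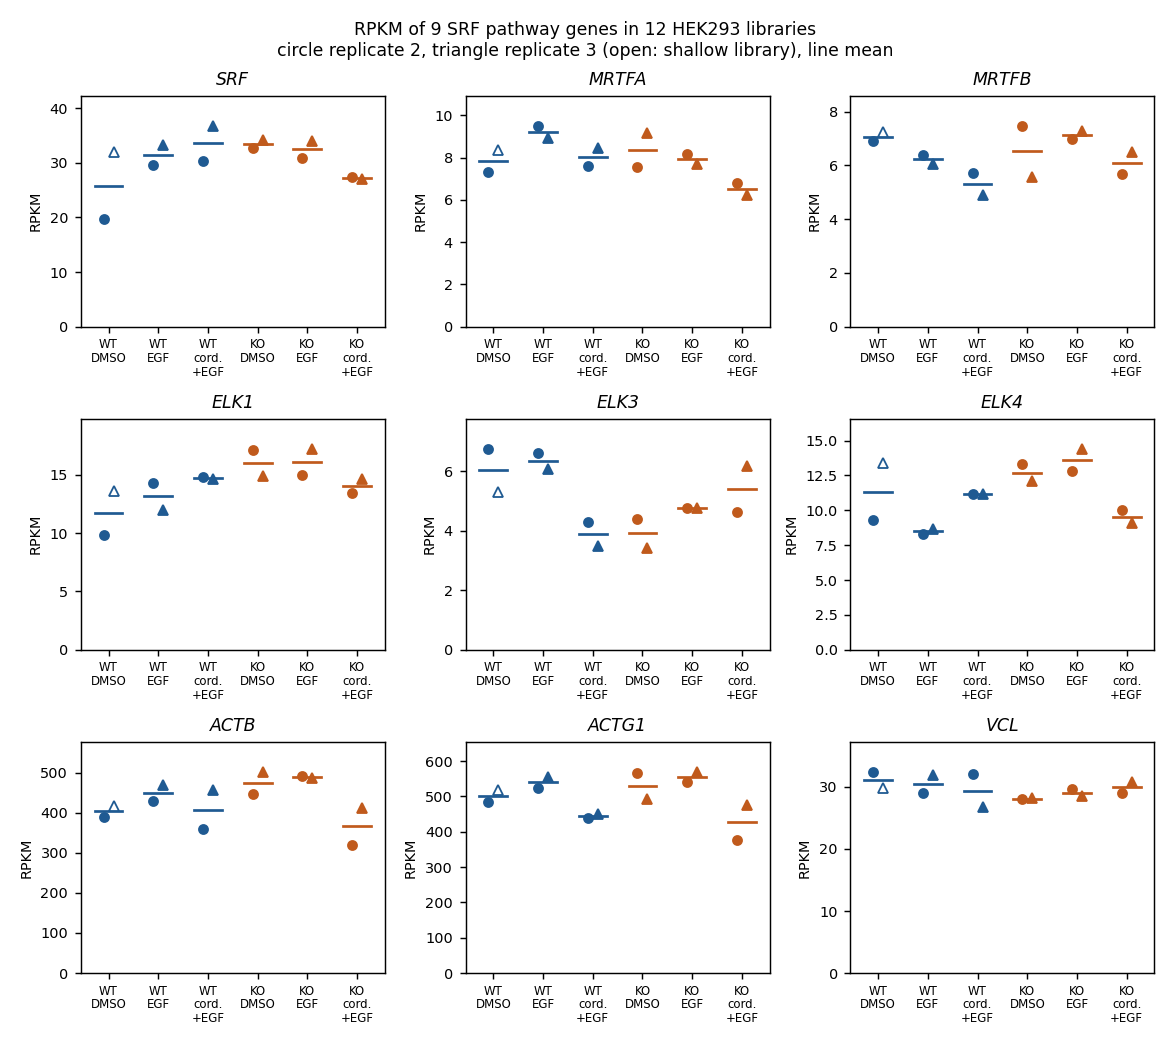
Deposited RPKM (vertical axes, each from 0) of the 9 genes in the 6 groups, WT in blue and AMPK KO in orange, with circles for replicate 2, triangles for replicate 3 (open for the shallow library) and lines for group means (n = 2). ELK4 with EGF lies at 8.29 and 8.69 RPKM in WT and at 12.8 and 14.4 RPKM in AMPK KO cells, and VCL stays between 26.7 and 32.4 RPKM.

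SRF and ACTG1 are themselves classical SRF targets, so the start regions were read for CArG boxes (CC and GG around 6 letters that are each A or T, the same motif on both strands). Sequences are RefSeq windows on GRCh38.p14. They run from 250 bases before a RefSeq start to 50 bases after it. For ACTG1 and VCL the window lies inside the gene span printed above, so distances are not from the ends of that span. Of the 9 members, 8 had at least 1 window. ACTB was not in the table. The first of 2 SRF windows (chr6:43171019-43171318, plus strand) held 2 boxes, with first bases 30 and 10 bases before the start. The other SRF window held none and is not shown. The ACTG1 window (chr17:81512750-81513049, minus strand) held 1 box, with its first base 94 bases before the start. EGR1, the gene with the largest EGF response among the SRF targets examined, is shown for comparison (chr5:138465229-138465528, plus strand), with 2 boxes. The CArG boxes are in capitals.
SRF: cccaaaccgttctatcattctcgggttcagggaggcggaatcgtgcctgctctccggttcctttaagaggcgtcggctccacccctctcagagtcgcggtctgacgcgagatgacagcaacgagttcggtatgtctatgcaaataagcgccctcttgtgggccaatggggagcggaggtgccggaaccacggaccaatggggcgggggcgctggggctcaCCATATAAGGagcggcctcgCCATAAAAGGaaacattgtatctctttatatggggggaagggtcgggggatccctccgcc
ACTG1: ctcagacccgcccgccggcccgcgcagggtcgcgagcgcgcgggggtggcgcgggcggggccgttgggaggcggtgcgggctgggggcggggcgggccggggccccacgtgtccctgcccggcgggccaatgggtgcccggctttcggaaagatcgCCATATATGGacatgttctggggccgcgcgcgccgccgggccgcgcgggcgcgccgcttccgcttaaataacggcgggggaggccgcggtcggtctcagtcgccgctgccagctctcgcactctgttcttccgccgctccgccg
EGR1: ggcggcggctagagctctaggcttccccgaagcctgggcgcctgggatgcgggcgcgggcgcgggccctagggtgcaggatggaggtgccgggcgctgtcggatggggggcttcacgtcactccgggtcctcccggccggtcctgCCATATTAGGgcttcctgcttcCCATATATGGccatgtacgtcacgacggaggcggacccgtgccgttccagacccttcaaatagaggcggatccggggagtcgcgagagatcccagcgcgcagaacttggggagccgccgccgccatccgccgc

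Of 35116 such windows in the table, 454 (1.29%) held at least 1 CArG box and 11 (0.0313%) held at least 2. No window of VCL, MRTFA, MRTFB, ELK1, ELK3 or ELK4 held one. ELK4 was the only member with the ETS motif CCGGAAGT, searched on both strands, with its first base 22 bases before the start. The motif was in 1453 windows (4.14%). The ELK4 window (chr1:205631962-205632261, minus strand) is shown because ELK4 gave the largest differences of the 9 genes, with the ETS motif in capitals.
ELK4: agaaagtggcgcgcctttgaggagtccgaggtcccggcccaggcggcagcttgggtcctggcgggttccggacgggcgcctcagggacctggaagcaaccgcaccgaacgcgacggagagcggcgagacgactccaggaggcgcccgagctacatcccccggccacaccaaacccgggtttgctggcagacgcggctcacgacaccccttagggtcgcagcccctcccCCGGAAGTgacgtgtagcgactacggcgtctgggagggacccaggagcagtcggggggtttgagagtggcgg

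The first comparison was of EGF with DMSO alone. None of the 9 genes passed an adjusted p under 0.05 by limma in WT cells, where 0.0227% of all genes tested were called, or in AMPK KO cells, where 0.0136% were called. An unadjusted p under 0.05 was reached by 1 member in WT (ELK4; 9.72% of all genes) and by 0 in AMPK KO cells (2.42% of all genes). Voom on recovered reads also called no member in either line (0.0424% and 0.0188% of all genes). The members had a median log2 fold change of 0.081 (WT) and 0.059 (AMPK KO), against 0.016 and 0.0063 over all genes tested. In WT cells 5 members did not overlap between the groups (36.7% of all genes did not), and in AMPK KO cells 2 did not (38.8%).

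SRF itself is an immediate early gene in many serum-stimulated cells. Here it had 19.7 and 32.0 RPKM in WT DMSO cells and 29.6 and 33.3 RPKM with EGF. The groups overlapped, and the low value was WT DMSO replicate 2, not the shallow library. The log2 fold change was 0.29 (SE 0.195, 95% interval -0.15 to 0.73, limma adjusted p 0.623), and it ran from -0.049 to 0.63 when single libraries were left out. SRF in AMPK KO cells had 32.7 and 34.1 RPKM with DMSO and 30.9 and 34.0 RPKM with EGF, which overlapped as well. The log2 fold change was -0.032 (SE 0.195, 95% interval -0.47 to 0.41, adjusted p 1.0). The difference between the lines was -0.32 (SE 0.275, adjusted p 0.745). For the difference of EGF effects 0 members reached an adjusted or an unadjusted p under 0.05, where 0.0% and 8.69% of all genes did.

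The actin-regulated cofactors gave small values with EGF. MRTFA had 7.31 and 8.38 RPKM in WT DMSO cells and 9.51 and 8.95 RPKM with EGF, without overlap (log2 fold change 0.20, SE 0.129, adjusted p 0.61). MRTFA in AMPK KO cells had 7.58 and 9.16 RPKM with DMSO and 8.17 and 7.72 RPKM with EGF, inside the DMSO range. For MRTFB the sign differed between the lines, and no value passed the test. It had 6.9 and 7.25 RPKM in WT DMSO cells and 6.38 and 6.07 RPKM with EGF (log2 fold change -0.20, SE 0.161, adjusted p 0.682). In AMPK KO cells it had 7.48 and 5.57 RPKM with DMSO and 7.0 and 7.3 RPKM with EGF (0.15, SE 0.161, adjusted p 1.0), and the difference between lines was 0.34 (SE 0.228, adjusted p 0.676).

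Among the ERK-regulated cofactors ELK4 had the smallest p in the WT comparison. It had 9.28 and 13.4 RPKM in WT DMSO cells and 8.29 and 8.69 RPKM with EGF. Both EGF libraries lay below both DMSO libraries, and the shallow library was the high one. The log2 fold change was -0.40 (SE 0.162, 95% interval -0.77 to -0.036, adjusted p 0.503). With the shallow library as the only WT DMSO sample (replicate 2 left out) it was -0.65 with an adjusted p of 0.0445, and 3.18% of all genes were then called. ELK4 in AMPK KO cells had 13.3 and 12.1 RPKM with DMSO and 12.8 and 14.4 RPKM with EGF, which overlapped (0.10, SE 0.162, adjusted p 1.0). ELK1 overlapped between DMSO and EGF in both lines, with 9.82 and 13.6 against 14.3 and 12 RPKM in WT and 17.1 and 14.9 against 15.0 and 17.2 RPKM in AMPK KO cells. ELK3 had 6.75 and 5.3 RPKM in WT DMSO cells and 6.61 and 6.06 RPKM with EGF. The AMPK KO cells had ELK3 at 4.41 and 3.42 RPKM with DMSO and at 4.76 RPKM in both EGF libraries, which did not overlap (0.27, SE 0.196, adjusted p 1.0).

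None of the cytoskeletal targets passed the test after 30 min of EGF. ACTB had 391 and 418 RPKM in WT DMSO cells and 431 and 469 RPKM with EGF (log2 fold change 0.13, SE 0.196, 95% interval -0.32 to 0.57, adjusted p 0.844). ACTG1 had 484 and 517 against 525 and 555 RPKM in the same cells (0.081, SE 0.192, adjusted p 0.898). Both EGF libraries lay above both DMSO libraries for each actin. In AMPK KO cells the groups overlapped for each, with ACTB at 447 and 502 against 493 and 486 RPKM and ACTG1 at 567 and 494 against 542 and 569 RPKM. VCL had 32.4 and 29.8 RPKM in WT DMSO cells and 29.0 and 31.9 RPKM with EGF, an overlap (-0.058, SE 0.117, 95% interval -0.32 to 0.21). For VCL in AMPK KO cells the values were 28 and 28.2 RPKM with DMSO and 29.7 and 28.5 RPKM with EGF (0.059, SE 0.117, 95% interval -0.21 to 0.32). The intervals over the 9 genes and both lines reached from -0.77 to 0.73, so changes of 2-fold lay outside them. They rest on a spread estimated over all 6 groups, of which WT DMSO had the lowest replicate correlation. With only the groups compared in the fit, the SE for SRF in WT cells was 0.255 instead of 0.195.

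**Figure D2:**
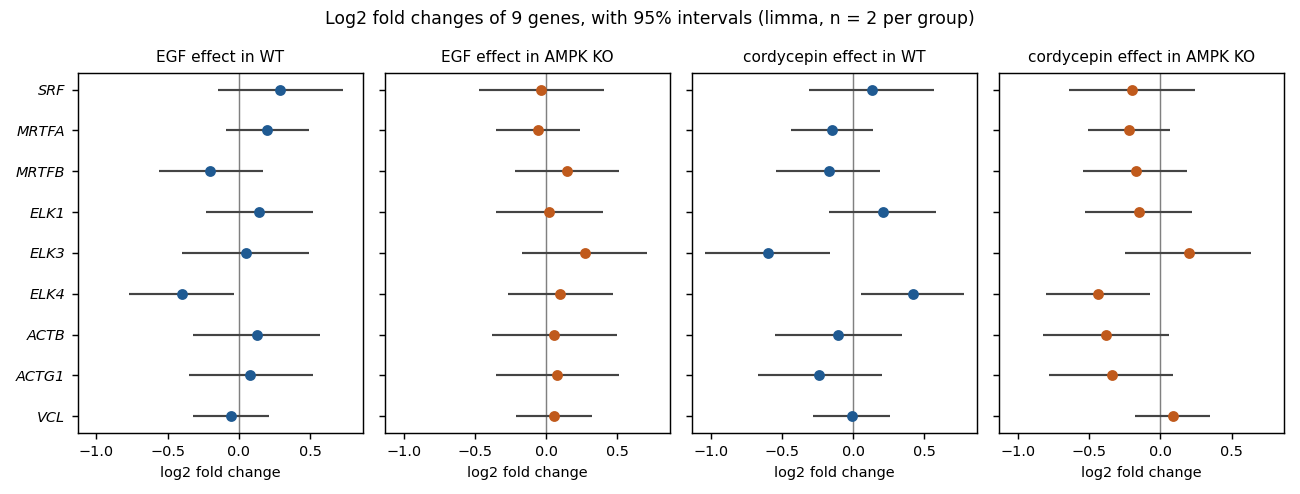
Log2 fold changes (horizontal axes) of the 9 genes with 95% intervals from limma, in 4 panels for the EGF effect and the cordycepin effect in WT (blue) and AMPK KO cells (orange), n = 2 per group. For the cordycepin effect ELK4 lies at 0.42 in WT and -0.44 in AMPK KO cells, and ELK3 at -0.60 in WT and 0.20 in AMPK KO cells.

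Cordycepin was compared with DMSO in EGF-treated cells of each line. No member passed the adjusted threshold by limma in WT cells (0.00453% of all genes called) or in AMPK KO cells (0.471% called). At an unadjusted p under 0.05 there were 2 members in WT cells (ELK3 and ELK4; 16.0% of all genes), while AMPK KO cells had 1 (ELK4; 21.8%). Voom called ELK3 in WT cells (3.89% of all genes) and no member in AMPK KO cells (5.95%). The members had a median log2 fold change of -0.11 (WT) and -0.20 (AMPK KO), against 0.033 and 0.056 over all genes. On the scaled values of the test, the groups did not overlap for any of the 9 members in AMPK KO cells, where 59.2% of all genes did not overlap. Of the members 7 were lower and 2 higher with cordycepin, against 27.0% and 32.2% of all genes. In WT cells 6 members did not overlap, against 53.9% of all genes.

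ELK4 had fold changes of opposite sign in the 2 lines, neither past the adjusted threshold. WT cells had 8.29 and 8.69 RPKM with EGF and 11.2 RPKM in both libraries with cordycepin and EGF. AMPK KO cells had 12.8 and 14.4 RPKM with EGF and 10.0 and 9.11 RPKM with cordycepin and EGF. The groups did not overlap in either line. WT cells gave a log2 fold change of 0.42 (SE 0.162, limma adjusted p 0.284), and AMPK KO cells one of -0.44 (SE 0.162, limma adjusted p 0.172). Their difference, tested as an interaction, was -0.85 (SE 0.229, 95% interval -1.37 to -0.34, unadjusted p 0.00471, adjusted p 0.125), and 0.0% of all genes were called in that comparison. Unadjusted p under 0.05 were found there for ELK4 and ELK3, and for 21.4% of all genes. The size stayed between -0.94 and -0.77 over 24 alternatives, while the adjusted p ran from 0.0205 to 0.351. It passed with only the groups compared in the fit (adjusted p 0.0399, 5.11% of all genes called), with array weights (0.0356, 6.6% called), with voom (0.0205, 9.3% called) and without either WT DMSO library (0.0224 and 0.0228, 9.06% and 9.09% called). The WT DMSO libraries take no part in this contrast other than through the estimate of spread.

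ELK3 had the signs the other way round. It had 6.61 and 6.06 RPKM in WT cells with EGF and 4.29 and 3.5 RPKM with cordycepin and EGF. Both cordycepin libraries lay below both EGF libraries (log2 fold change -0.60, SE 0.196, 95% interval -1.04 to -0.16, adjusted p 0.267). With voom the value was -0.69 and the adjusted p 0.0498, with 3.89% of all genes called. The AMPK KO cells had ELK3 at 4.76 RPKM in both EGF libraries and 4.62 and 6.19 RPKM with cordycepin and EGF. On the scaled values of the test the groups did not overlap, and the value was 0.20 (SE 0.196, adjusted p 0.586). The difference between the lines was 0.80 (SE 0.277, 95% interval 0.17 to 1.43, adjusted p 0.162). ELK1, the remaining family member, had 14.3 and 12 RPKM with EGF and 14.8 and 14.6 RPKM with cordycepin and EGF in WT cells, and 15.0 and 17.2 against 13.4 and 14.6 RPKM in AMPK KO cells (interaction -0.36, SE 0.234, adjusted p 0.402).

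For SRF and the MRTF genes every 95% interval of the cordycepin effect held 0. SRF had 29.6 and 33.3 RPKM with EGF and 30.4 and 36.8 RPKM with cordycepin and EGF in WT cells, which overlapped (0.13, SE 0.195, adjusted p 0.748). In AMPK KO cells it had 30.9 and 34.0 RPKM with EGF and 27.5 and 27.1 RPKM with cordycepin and EGF (-0.20, SE 0.195, 95% interval -0.64 to 0.24, adjusted p 0.583). MRTFA was lower without overlap in both lines, at 7.6 and 8.47 RPKM in WT and 6.81 and 6.23 RPKM in AMPK KO cells with cordycepin and EGF. Its log2 fold changes of -0.15 (SE 0.129) and -0.22 (SE 0.129) had adjusted p of 0.572 and 0.342. MRTFB likewise was lower without overlap in both lines, at 5.73 and 4.89 RPKM in WT and 5.67 and 6.5 RPKM in AMPK KO cells. Its log2 fold change was -0.17 (SE 0.161) in each line, with adjusted p of 0.601 and 0.554.

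The actins had their lowest value in the same library. With cordycepin and EGF, AMPK KO cells had 321 and 412 RPKM of ACTB, against 493 and 486 RPKM with EGF (log2 fold change -0.38, SE 0.196, 95% interval -0.82 to 0.062, adjusted p 0.291). ACTG1 had 377 and 476 RPKM, against 542 and 569 RPKM (-0.34, SE 0.192, adjusted p 0.329). Replicate 2 was the lower library for both. In WT cells ACTB had 359 and 457 RPKM with cordycepin and EGF, which overlapped the EGF libraries (-0.11, SE 0.196), and ACTG1 had 439 and 450 RPKM, below both EGF libraries (-0.24, SE 0.192, adjusted p 0.545). VCL, an actin-binding partner at adhesions, lay closer to 0. It had 32.1 and 26.7 RPKM in WT and 29.1 and 30.8 RPKM in AMPK KO cells with cordycepin and EGF, with log2 fold changes of -0.0099 and 0.087 (SE 0.117 each).

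The 2 actin transcripts had similar RPKM. The ratio of ACTG1 to ACTB ran from 0.983 to 1.27 over the 12 libraries, with a median of 1.18. The lowest ratios were in AMPK KO DMSO replicate 3 (0.983) and WT cordycepin+EGF replicate 3 (0.984), the libraries in which ACTB was above ACTG1. Both actins have processed pseudogenes of near-identical sequence, to which reads can be assigned in error. The 4 listed ACTB pseudogenes held reads equal to 0.268% to 0.941% of those on ACTB, and the 11 listed ACTG1 pseudogenes 0.619% to 1.38%. No pseudogene of SRF, ELK1 or VCL was listed.

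**Figure D3:**
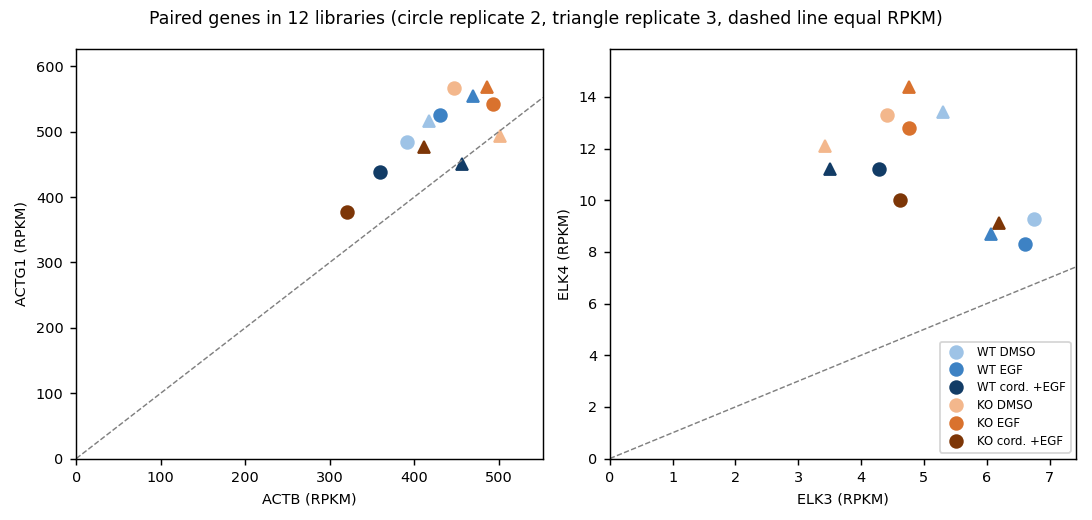
RPKM of ACTG1 against ACTB (left) and of ELK4 against ELK3 (right) in the 12 libraries, coloured by group, with circles for replicate 2, triangles for replicate 3 and a dashed line at equal RPKM. The actins lie near the line with a ratio of 0.983 to 1.27, and ELK4 exceeds ELK3 in every library.

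The lines were then compared within each treatment. No member passed the adjusted threshold by limma with DMSO (0.44% of all genes called), with EGF (1.74% called) or with cordycepin and EGF (0.118% called). At an unadjusted p under 0.05 there were 2 members with DMSO (ELK1 and ELK3; 21.3% of all genes), 1 with EGF (ELK4; 22.5%) and none with cordycepin and EGF (13.7%). Voom called ELK4 with EGF and no member with DMSO (7.84% of all genes) or with cordycepin and EGF (1.4%). The difference of ELK4 with EGF was the largest of the 63 member values in the 7 comparisons of 2 groups. ELK4 was higher in AMPK KO cells, 12.8 and 14.4 against 8.29 and 8.69 RPKM, by 0.66 on the log2 scale (SE 0.162, 1.58-fold, 95% interval 1.23 to 2.04, unadjusted p 0.00277, adjusted p 0.0682). Over 24 alternatives the value was 0.58 to 0.77 and the adjusted p 0.00454 to 0.357. It passed with array weights (0.00454, 22.8% of all genes called), with only these groups in the fit (0.0363, 10.0%), with voom (0.0126, 10.9%) and without either WT DMSO library (0.0156 and 0.0157, 10.7% each). The alternatives include a replicate block within each line, which compares the lines at the fitted level of replicate 2. With DMSO alone ELK4 had 13.3 and 12.1 RPKM in AMPK KO and 9.28 and 13.4 RPKM in WT cells, which overlapped.

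In unstimulated cells the differences between the lines were largest for ELK3 and ELK1, and neither passed the adjusted threshold. ELK1 had 17.1 and 14.9 against 9.82 and 13.6 RPKM (log2 fold change 0.43, SE 0.165, 95% interval 0.054 to 0.80, adjusted p 0.191). ELK3 had 4.41 and 3.42 against 6.75 and 5.3 RPKM (-0.58, SE 0.196, 95% interval -1.03 to -0.14, adjusted p 0.153). SRF had 32.7 and 34.1 against 19.7 and 32.0 RPKM (0.38, SE 0.195, adjusted p 0.288). The groups did not overlap for these 3 genes, nor for ACTB and VCL (48.5% of all genes did not). The values for SRF and ELK1 rested on WT DMSO replicate 2. Without WT DMSO replicate 3 they were 0.72 (adjusted p 0.0188) and 0.65 (adjusted p 0.0352), with 13.9% of all genes called. Without WT DMSO replicate 2 they were 0.045 and 0.21. With cordycepin and EGF the order of ELK3 was the other way, with 4.62 and 6.19 RPKM in AMPK KO and 4.29 and 3.5 RPKM in WT cells (0.44, SE 0.196, adjusted p 0.369). These comparisons and those of treatments share libraries, so their values are not independent of each other.

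The other genes of the pathway were counted from lists that were chosen with earlier results of these data known. Among 13 tested immediate early genes of the ternary complex type, all 13 were higher with EGF in each line, with a median log2 fold change of 1.3 (WT) and 0.60 (AMPK KO). In WT cells 5 rose past the adjusted threshold (EGR1, EGR3, FOS, FOSB and EGR2), where 0.0227% of all genes were called, and the AMPK KO cells had 3 (EGR1, EGR3 and FOS; 0.0136% of all genes). The calls of EGR2 and FOSB were made in 10 of 23 and 11 of 24 alternatives, so the counts do not show that the lines differed. EGR1, a zinc finger transcription factor, went from 2.64 and 2.38 RPKM to 230 and 207 RPKM in WT cells (log2 fold change 6.16, SE 0.186, adjusted p 2.48e-06). With cordycepin and EGF it had 53.8 and 50.9 RPKM in WT cells, and so fell by 2.0 (log2 fold change, limma adjusted p 0.0439), and no other gene of the list was called. EGR1 in AMPK KO cells went from 2.38 and 2.17 RPKM to 106 and 107 RPKM with EGF (5.28, SE 0.186, adjusted p 9.73e-06). With cordycepin and EGF it had 44 and 70.0 RPKM there, below both EGF libraries (-0.89, SE 0.186, adjusted p 0.0644). The list's median for the cordycepin effect was 0.068 in that line (7 higher, 6 lower), and none was called. In WT cells the list's median was -0.37 (2 higher, 11 lower). For the difference of EGF effects, AMPK KO minus WT, the median was -0.66 (0 higher, 13 lower). For the difference of cordycepin effects it was 0.86 (10 higher, 3 lower). No gene of the list was called for either difference. In the same comparisons SRF and the ELK genes passed no adjusted threshold. With EGF, ARC (-2.27, SE 0.293, adjusted p 0.0177) and EGR1 (-1.01, SE 0.186, adjusted p 0.0416) were lower in AMPK KO than in WT cells.

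The cytoskeletal genes of the MRTF type had 36 members that were tested. With EGF 27 were higher and 9 lower in WT cells (median 0.13), the AMPK KO cells had 29 higher and 7 lower (median 0.078), and none was called in either line. Their 2 highest values in WT cells were those of JUNB (1.12) and CCN1 (0.93), the latter a matricellular protein gene that went from 6.04 and 3.9 to 9.94 and 9.88 RPKM (SE 0.198, adjusted p 0.417). With cordycepin 13 were higher and 23 lower in each line, with medians of -0.15 and -0.093. Over all genes tested the medians were 0.016 and 0.0063 for the EGF effects and 0.033 and 0.056 for the cordycepin effects, and whether the list differed from them was not tested. ANKRD1, a cardiac ankyrin repeat protein gene, was the 1 call, in AMPK KO cells. It had no read and 8 reads with EGF and 42 and 50 reads with cordycepin and EGF (1.70, SE 0.256, adjusted p 0.0389). FLNA, which encodes the actin crosslinker filamin A, was higher in AMPK KO than in WT cells with DMSO (102 and 99.2 against 53.6 and 63.7 RPKM, 0.76, SE 0.116, adjusted p 0.0373). It was also higher with EGF (0.67, SE 0.116, adjusted p 0.0362), as was WDR1, a cofactor of actin disassembly (0.59, SE 0.110, adjusted p 0.0416). JUNB is also an immediate early gene.

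None of the 7 tested coregulators of SRF outside the 9 genes, such as FHL2, EP300 and SMARCA4, was called in any comparison. Of all genes tested, 0.0% to 1.74% were called per comparison, so this count does not set the coregulators apart.

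**Figure D4:**
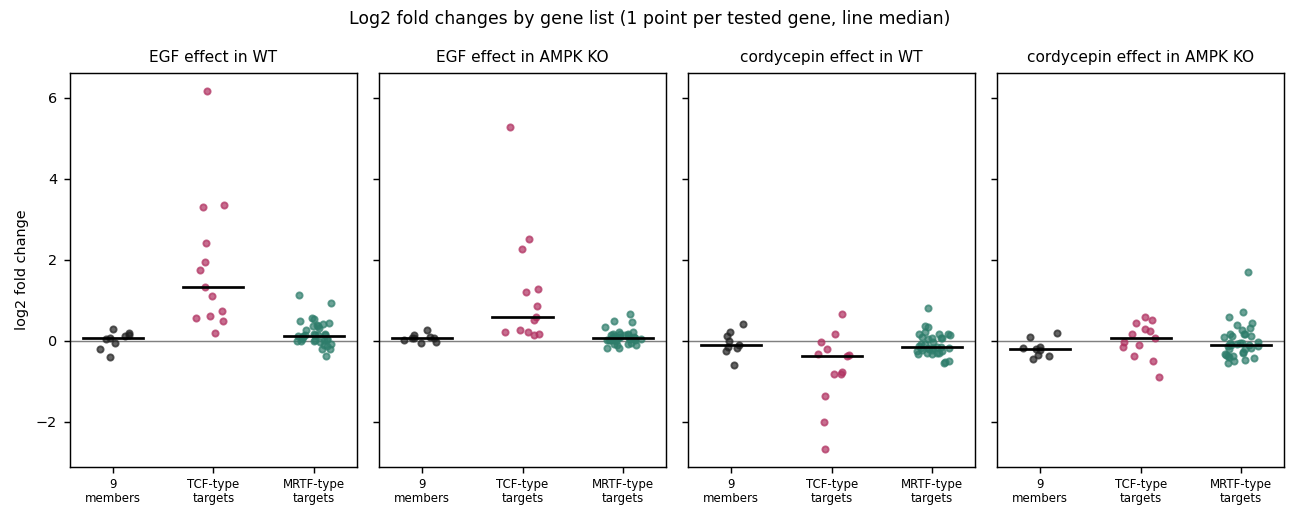
Log2 fold changes (vertical axis) of tested genes by list, 1 point per gene with the median as a line, for the EGF and cordycepin effects in each cell line. The immediate early list has a median of 1.3 with EGF in WT cells, where the 9 members have 0.081 and the MRTF-type list 0.13.

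Genes with CArG boxes in these windows were also counted, with no test of their difference from the rest. Leaving out the 9 members, 168 tested genes had at least 1 box in a window, and their median log2 fold change with EGF was 0.026 (WT) and 0.039 (AMPK KO). The 11344 genes with windows and no box had 0.021 and 0.012. With EGF in WT cells 2 of the 168 were called (EGR1 and EGR2) and 2 of the 11344, and in AMPK KO cells 1 (EGR1) and 1. FOS, of the immediate early list above, was among the called genes without a box in each line. Genes with no box in these windows can therefore include SRF targets. With cordycepin the medians were -0.058 (WT) and -0.057 (AMPK KO), against 0.0025 and -0.017. EGR1 was called lower in WT and SLC25A46 in AMPK KO cells, the 1 call among the 168 in each, and the 11344 had 0 calls in WT and 34 higher and 11 lower in AMPK KO cells. SRF, with 2 boxes, and ACTG1, with 1, lay at 0.29 and 0.081 with EGF in WT cells.

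The genes whose levels were most like those of SRF over the 12 libraries were TRIM8-DT (Pearson r 0.966), KRBA1 (0.961) and DPP9 (0.957), among 18755 genes with a mean of at least 1 RPKM. For ACTB they were ARPC3P3 (0.961), GTSE1 (0.955) and PPP4R2 (0.952). These are the top of many correlations over 12 points that share libraries, and no member entered the search. Several members overlap other genes, and whether strand was used in counting is not given in the sources used here. ELK4 overlaps MFSD4A and another gene on the opposite strand, VCL overlaps AP3M1 there, and MRTFA overlaps 5 genes on the opposite strand and RPL4P6 on its own. Only genes of the deposited table were searched, by their GENCODE positions, and SRF, ELK1 and ACTB overlap none of these. In bulk RNA, fewer transcripts per cell and fewer cells carrying them cannot be told apart.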

How the data were processed

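The authors isolated total RNA of HEK293 cells for RNA-seq with paired reads, aligned these to GRCh38.p13 and deposited RPKM values per gene. They discarded replicate 1 of each condition, which was not analysed here. Groups came from the sample labels, which do not say that replicates were separate cultures, so p-values measure the spread between these libraries. The table lists 26058 genes, of which 26029 matched GENCODE release 44. A row without a name and a row of upper quartiles were left out. Reads were recovered from the RPKM steps, and 25082 genes (96.36%) gave whole reads in all 12 libraries (tolerance 0.05 reads).

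Following the study, deposited RPKM values were scaled by the upper quartile. Tests used limma 3.58.1 in R 4.3.3 (trend, two-sided) on log2(scaled RPKM + 0.5) in 1 fit of all 12 libraries, for the 22067 genes that averaged 0.5 RPKM or more. Residual degrees of freedom were 6, and 8.96 after moderation. P-values were Benjamini-Hochberg adjusted over all genes tested within each of 9 comparisons, and genes with an adjusted p under 0.05 are called. Fold changes are on that log2 scale and understate those of low genes. Printed RPKM are as deposited, and SE is moderated. The script was tested on simulated data. Alternatives covered the pseudocount, the filter, scaling, a replicate block, weights, voom on recovered reads (21245 genes) and each library left out. A replicate block was also set within each line, and that fit compares the lines at the fitted level of replicate 2.

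The rule for names took the 9 members, genes of the lists that were called or had the 2 highest or lowest values in a comparison, the 3 genes most like SRF and ACTB, PRKAA1 and PRKAA2, and not all are printed. Markers, overlapping genes and genes called among those with CArG boxes are named besides. The members and lists were chosen with earlier results of these data known. A further list of genes was examined and is not reported here.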

Additional observations from a re-analysis of the deposited data

How the results depend on the processing

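The 81 member values (9 genes in 9 comparisons) were computed under 12 alternatives with all libraries and 12 that leave out 1 library. Of the alternatives with all libraries, the filters, no trend, only the groups compared, array weights and the plain replicate block left fold changes unaltered. Directions under these could not change. With all libraries 970 of 972 values kept their direction. The exceptions were values near 0. MRTFB in the difference of cordycepin effects was 0.00082 with a pseudocount of 0.1. VCL in AMPK KO against WT with cordycepin was -0.0002 with the replicate block set within lines. That block compares the lines at the fitted level of replicate 2, so the VCL value is not a difference of group means. The number of members called went from 0 to 1 for AMPK KO against WT with EGF and for the difference of cordycepin effects (ELK4 in both) with array weights, with only the groups compared and with voom, and from 0 to 1 for the cordycepin effect in WT cells with voom (ELK3). These fits also called more of all genes, as given above for each. With single libraries left out the number ran from 0 to 1 for the EGF effect in WT cells, from 0 to 2 for AMPK KO against WT with DMSO, from 0 to 1 for AMPK KO against WT with EGF and from 0 to 1 for the difference of cordycepin effects. A fold change can differ only where a library of its own groups is left out, so many of these values were bound to keep their direction. Without 1 library 931 of 972 values kept their direction, and 28 results, none larger than 0.32 on the log2 scale, changed it for some library. For the EGF effect in WT cells these were SRF from -0.049 to 0.63, ELK1 from -0.075 to 0.36, ELK3 from -0.12 to 0.22 and VCL from -0.12 to 0.0075. For the EGF effect in AMPK KO cells these were SRF from -0.1 to 0.037, MRTFA from -0.17 to 0.06, MRTFB from -0.066 to 0.36, ELK1 from -0.086 to 0.13, ACTB from -0.011 to 0.13 and ACTG1 from -0.034 to 0.19. For the cordycepin effect in WT cells these were ACTB from -0.26 to 0.05 and VCL from -0.16 to 0.14. For AMPK KO against WT with DMSO these were MRTFA from -0.051 to 0.18, MRTFB from -0.35 to 0.069, ELK4 from -0.091 to 0.41 and ACTG1 from -0.054 to 0.17. For AMPK KO against WT with EGF these were SRF from -0.011 to 0.13 and VCL from -0.1 to 0.011. For AMPK KO against WT with cordycepin these were ACTB from -0.31 to 0.039, ACTG1 from -0.21 to 0.11 and VCL from -0.097 to 0.2. For the difference of EGF effects between lines these were SRF from -0.66 to 0.017, ELK1 from -0.34 to 0.096, ACTB from -0.14 to 0.004 and ACTG1 from -0.11 to 0.11. For the difference of cordycepin effects between lines these were MRTFB from -0.12 to 0.12, ACTG1 from -0.26 to 0.053 and VCL from -0.05 to 0.24. These fits assume that the remaining library varies like those of the other groups, and the cause was not tested.

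The replicate numbers did not pair the samples throughout. The differences between replicates correlated across genes with r of 0.136 to 0.314 among WT groups, -0.122 to 0.0307 among AMPK KO groups and -0.0809 to 0.322 between groups of different lines. With the replicate block 0 members were called in every comparison, and ELK4 in AMPK KO against WT with EGF was at 0.66 (adjusted p 0.0759). The calls of listed genes were less stable than their directions, which held in every alternative, though many alternatives cannot alter a fold change. EGR1 with EGF was called in 24 of 24 alternatives in each line, ARC in AMPK KO against WT with EGF in 20 of 24, EGR1 there in 13 of 24, FLNA in 11 of 24 with DMSO and 14 of 24 with EGF, EGR3 and FOS with EGF in 23 of 24 each in WT and in 20 and 19 of 24 in AMPK KO cells, PRKAA1 with DMSO in 15 of 24, ANKRD1 in 10 of 23, WDR1 in 10 of 24, COL1A1 in 8 of 23, FOSB in 11 of 24, EGR2 in 10 of 23 and the cordycepin effect on EGR1 in WT cells in 12 of 24. With 2 libraries per group and a shallow one in WT DMSO, WT DMSO was the least precise group.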
